A study of Mus musculus with 8 samples.

Results

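The translation initiation and elongation factors were examined in mouse liver as a family of genes chosen by name alone, namely every gene whose symbol starts with Eif or Eef followed directly by a digit. In all, 62 of the 14506 genes in the deposited table met the rule and none had to be dropped as a named pseudogene. Whole livers came from 4 *Rragc* +/+ mice and 4 *Rragc* S74N/+ mice, in which 1 of the alleles of *Rragc*, the gene of the RagC GTPase, carried the S74N substitution throughout the body. Among the *Rragc* +/+ livers 3 came from 3-month-old mice and 1 (replicate 4) from a 2.5-month-old mouse, and among the *Rragc* S74N/+ livers 2 came from 3-month-old mice, 1 (replicate 3) from a 2.5-month-old mouse and 1 (replicate 4) from a 2-month-old mouse. Sex is not given in the labels used here, and the labels give each library a code of its own without saying that every code is a separate animal, so p-values measure the spread between these 8 samples.

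Initiation factors bring the small ribosomal subunit, the initiator tRNA and the mRNA together at a start codon, and elongation factors then deliver aminoacyl tRNAs and move the ribosome along the message. RagC belongs to the Rag GTPases that place mTORC1 at the lysosome when nutrients are present, and mTORC1 in turn phosphorylates the 4E-BP repressors, which otherwise hold the cap-binding protein eIF4E. In liver, much of this control acts on the proteins and on the translation of their mRNAs. The values here are mRNA levels, which carry neither phosphorylation nor translation, and in whole tissue fewer cells of a type cannot be told apart from less RNA per cell.

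The 8 libraries held 4313076 to 6632108 reads each. Hepatocyte markers dominated every liver, summing to between 348513 and 556938 normalized counts over 10 of 10 markers, while the skeletal muscle list stayed between 1.87 and 10.3. *Rragc* itself was counted at 63.7 to 112.0 normalized counts in the 8 livers and did not separate the genotypes (log2 difference −0.11 ± 0.25, SE, n = 4 per genotype, limma adjusted p = 0.931). A count per gene cannot show a substitution, so the genotypes rest on the labels. The genotypes also differed in the male-biased liver list, where 9 of 9 tested genes had a log2 difference below 0. Of these, 4 had an unadjusted p under 0.05 (limma), a level that 5.17% of all tested genes reached. The sums ran from 71419 to 80805 in *Rragc* +/+ and from 17676 to 61226 in *Rragc* S74N/+. The sum of 17676 was that of replicate 4, from the 2-month-old mouse, an age that *Rragc* +/+ lacks. The other *Rragc* S74N/+ livers had 34553, 60916 and 61226. Of 10 Kupffer cell markers, 7 were above 0 and 3 below, and 3 were higher at that level. These were Marco (log2 difference 1.82 ± 0.37, SE), C1qc (1.03 ± 0.45) and Adgre1 (0.80 ± 0.35). Marco did not overlap, at 20.5 to 25.5 normalized counts in *Rragc* +/+ and 37.9 to 124.8 in *Rragc* S74N/+. The sums of the list overlapped (3029 to 4771 and 3056 to 5069). Abundant markers such as Csf1r weigh most in them, so they say little of Marco. Of 10 endothelial markers, 5 were above 0 and 5 below, and 2 were higher at that level. These were Lyve1 (1.03 ± 0.38, SE) and Pecam1 (0.88 ± 0.31). The sums of the endothelial list again overlapped (1267 to 1614 and 1269 to 1647). Of 8 tested stellate cell markers, 4 were above 0 and 4 below, and 1 (Col1a1) was higher at that level. The sums of the stellate list overlapped (2130 to 2514 and 1909 to 2611). The kidney transcript Kap, the only tested gene of its list, was lower at that level. No marker passed the adjusted threshold (limma, lowest adjusted p 0.846). Their part in the results below was not tested.

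Because each read starts near the poly(A) tail of 1 transcript, counts in these libraries do not grow with transcript length, and levels of different genes are given as normalized counts without division by length. On this scale the translation factors together held 0.554% to 0.706% of all normalized counts in a liver. The 2 highest shares, 0.706% and 0.694%, were those of the 2.5-month-old livers.

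Levels spanned the elongation machinery at the top and its modifying enzymes at the bottom. Eef1a1, which carries aminoacyl tRNA to the ribosome, had the highest mean of the family (5935 normalized counts over 8 livers), followed by the translocase Eef2 (4678). Eif2s2, the beta subunit of eIF2, had the highest mean among initiation factors (2969), ahead of the scaffold Eif4g1 (2569) and of Eif5, the GTPase-activating protein of eIF2 (2134). The other subunits of eIF2 were far lower, with the X-linked gamma subunit Eif2s3x at a mean of 40.8 and its Y-linked counterpart Eif2s3y at 55.2. Eef1a1 and Eef2 overlapped across livers (4336 to 7076 and 2775 to 5981), and so did Eif2s2, Eif4g1 and Eif5. At the other end, the lysine methyltransferase gene Eef1akmt2 had a mean of 4.26, with 0 to 11 reads per liver, and was the only one of the 62 below the mean of 10 that was required for testing. The brain and muscle factor Eef1a2, and Eif4ebp3, had no row in the deposited table and so were not analysed here.

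**Figure D1:**
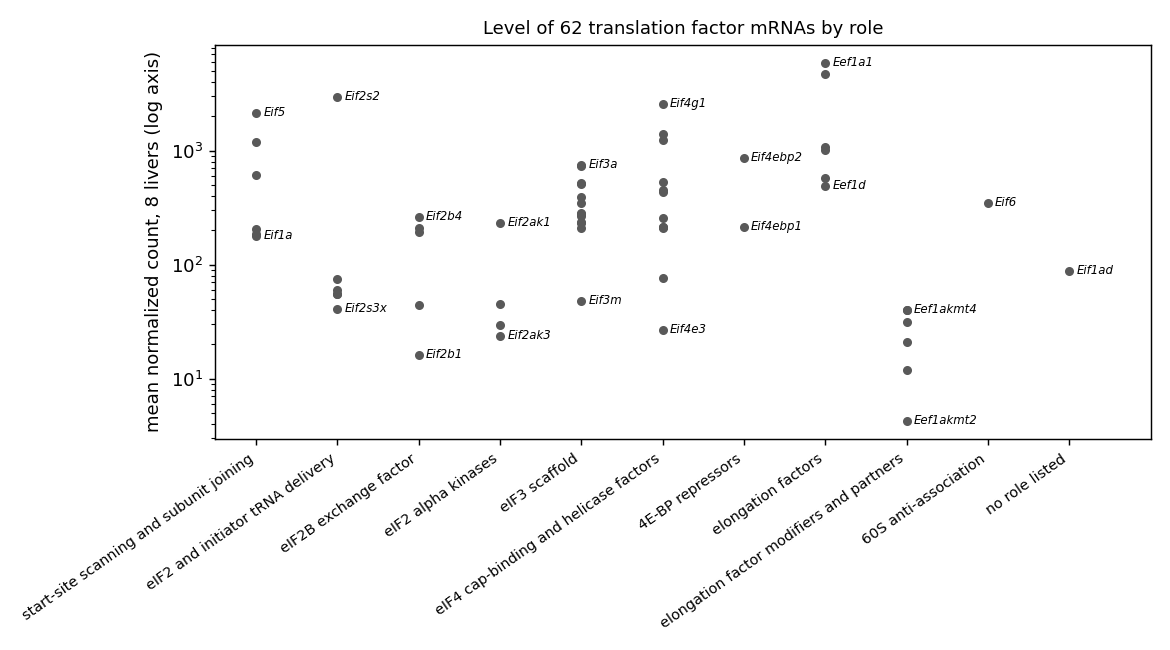
Mean normalized count over 8 livers (log axis) of each of 62 translation factor mRNAs, grouped by role on the horizontal axis, with each point a gene and the highest and lowest gene of a role named. The elongation factors reach 5935 with *Eef1a1*, and the elongation factor modifiers and partners lie between 4.26 and 40.5.

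Near-identical sequence limits some of these levels. In GENCODE M21 (GRCm38) 62 of 62 genes had a position, on 21 chromosomes, and 12 of them had at least 1 other gene matching the last 300 bases of a coding transcript at 95% identity or more over at least 100 bases. Eef1a1 had 13 such genes and Eif1 had 12, mostly pseudogenes, so their counts are uncertain where reads were split or lost. The same limit holds for Eif5a and Eif4e, with 2 pseudogene copies each, and for Eif3m, Eif2s2, Eif2s3x and Eif4a2, with 1 each. It therefore also covers the contrast between Eif2s2 and Eif2s3x given above. In addition, 12 shared exonic bases on the same strand with another annotated gene, among them Eif4a1, Eif4a2, Eif4e, Eif4g1 and Eef1a1. None of the genes whose genotypes separated, described next, had a near copy or such an overlap.

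Between the genotypes, 0 of the 61 tested translation factors passed an adjusted p of 0.05, where 0.00895% of all 11174 tested genes did (limma with Benjamini-Hochberg adjustment, the lowest adjusted p among them being 0.846). At an unadjusted p under 0.05 there were 4 (6.56%) against 5.17% of all tested genes: Eif2a and Eif4enif1 were higher in *Rragc* S74N/+, and Eif2b4 and Eif3l lower. For 5 (8.20%) the values of the 2 genotypes did not overlap, against 2.94% of all tested genes, and these were the same 4 with Eif1ad. The shares of the family are close to or a few genes above the background.

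Eif2a showed the largest genotype difference. It encodes eIF2A, a single-chain factor that can bind initiator tRNA and is distinct from the eIF2 alpha subunit, and it lies at chr3:58525821-58557501 on the plus strand. The *Rragc* +/+ livers had 41.9, 46.8, 32.5 and 43.0 normalized counts of Eif2a, and the *Rragc* S74N/+ livers 79.9, 81.8, 88.0 and 62.0. Every *Rragc* S74N/+ liver lay above every *Rragc* +/+ liver, on 23 to 92 reads per liver. Means of Eif2a were 41.1 ± 6.04 and 77.9 ± 11.2 (SD, n = 4 each), a fold of 1.90 and a log2 difference of 0.91 ± 0.26 (SE). The exact permutation test over 70 labellings gave a two-sided p of 0.0286, the smallest it can give, and limma p = 0.00376 unadjusted and 0.846 adjusted.

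The other genes of eIF2 and initiator tRNA delivery were not separated. The eIF2 alpha subunit gene Eif2s1 had log2 difference −0.07 ± 0.43 (SE), and Eif2s2 −0.14 ± 0.26. Eif2s3y was counted in each of the 8 livers, at 30.8, 40.2, 69.3 and 55.1 in *Rragc* +/+ and 58.8, 39.1, 68.0 and 79.9 in *Rragc* S74N/+. A Y-linked transcript was thus present at a similar order in all the livers, and the genotype ranges overlapped. Its X-linked homologue Eif2s3x ran from 14.9 to 78.6 in *Rragc* +/+ and from 18.9 to 65.2 in *Rragc* S74N/+.

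Eif2b4 was the gene with the largest decrease. It encodes the delta subunit of eIF2B, the exchange factor that recharges eIF2 with GTP, and lies at chr5:31187558-31193430 on the minus strand. Its normalized counts were 317.0, 423.7, 243.3 and 313.0 in *Rragc* +/+ and 239.6, 171.5, 214.0 and 180.3 in *Rragc* S74N/+. The groups did not overlap, although the lowest *Rragc* +/+ liver and the highest *Rragc* S74N/+ liver were nearly equal. Means were 324 ± 74.4 and 201 ± 31.4 (SD, n = 4 each), with a log2 difference of −0.67 ± 0.22 (SE). The exact permutation p for Eif2b4 was again 0.0286 (two-sided), fixed by that separation, and limma gave 0.0105 unadjusted and 0.846 adjusted.

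The log2 difference was below 0 for 5 of 5 eIF2B subunits, with a median of −0.36, against 0.01 over all tested genes, and 1 of the 5 had an unadjusted p under 0.05. Eif2b5, the catalytic epsilon subunit, had −0.43 ± 0.31 (SE) and Eif2b2 −0.36 ± 0.26. For Eif2b1, with only 3 to 30 reads per liver, the value was −0.01 ± 0.63, and its sign depended on the setting. The 4 kinases that phosphorylate eIF2 alpha and thereby block eIF2B lay near 0: Eif2ak1 (HRI, responsive to haem) had a log2 difference of 0.00 ± 0.20, Eif2ak2 (PKR, responsive to double-stranded RNA) −0.15 ± 0.40, Eif2ak3 (PERK, the endoplasmic reticulum kinase) 0.17 ± 0.39 and Eif2ak4 (GCN2, responsive to uncharged tRNA) 0.15 ± 0.35. Eif2ak1 was the most evenly expressed of the 4, from 199.9 to 254.6 over the 8 livers. For none of the 4 did the interval leave 0. It reached −1.01 for Eif2ak2, on 25 to 75 reads per liver, and 1.02 for Eif2ak3, on 11 to 42. A halving of Eif2ak2 or a doubling of Eif2ak3 thus could not be set aside. Each of the 4 changed sign in some setting or with a liver left out.

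Of the 13 eIF3 subunits, which form the scaffold that holds the small ribosomal subunit, 1 had an unadjusted p under 0.05. Eif3l (chr15:79075179-79094405, plus strand) had 239.6, 235.7, 205.1 and 319.5 normalized counts in *Rragc* +/+ and 177.2, 187.5, 189.4 and 142.8 in *Rragc* S74N/+. Each *Rragc* S74N/+ value lay below each *Rragc* +/+ value. The log2 difference of Eif3l was −0.51 ± 0.21 (SE), with a limma p of 0.0343 unadjusted. The exact two-sided permutation p of 0.0286 was fixed by the separation. Values below 0 were seen for 8 of the 13 and above 0 for 5, with a median of −0.07. The core subunits Eif3a, Eif3b and Eif3c had −0.26 ± 0.26, −0.14 ± 0.21 and −0.28 ± 0.21.

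Eif3m stood apart in its spread. It varied 10.2-fold among livers, the widest range of the tested genes of this family, with 27.0, 38.3, 41.0 and 14.9 normalized counts in *Rragc* +/+ and 103.7, 32.0, 11.1 and 113.4 in *Rragc* S74N/+. Livers of 1 genotype thus held both the highest and the lowest values. In both genotypes the lowest Eif3m value was that of the 2.5-month-old liver. The genotype log2 difference of Eif3m, 0.67 ± 0.63 (SE), was within that spread (exact two-sided permutation p = 0.486).

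Among the cap-binding and helicase factors, Eif4enif1 was the gene with an unadjusted p under 0.05. It encodes 4E-T, which binds eIF4E and carries it into the nucleus and to sites of mRNA storage, and lies at chr11:3202392-3244588 on the plus strand. The livers had 55.9, 72.0, 66.5 and 46.7 normalized counts in *Rragc* +/+ and 112.0, 74.7, 85.8 and 96.3 in *Rragc* S74N/+. The groups were separated by a narrow gap, from 72.0 to 74.7. The log2 difference was 0.61 ± 0.25 (SE) and the limma p 0.0318 unadjusted, with the exact two-sided permutation p again fixed at 0.0286.

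Its partner Eif4e, the cap-binding protein itself, had 271.3, 249.7, 193.8 and 299.9 normalized counts in *Rragc* +/+ and 253.4, 267.5, 306.5 and 221.1 in *Rragc* S74N/+. These ranges overlapped almost completely, with a log2 difference of 0.06 ± 0.21 (SE) and an interval from −0.40 to 0.51. Eif4g1, the scaffold between cap and ribosome, had −0.32 ± 0.20, and the helicases Eif4a1 and Eif4a2 had 0.19 ± 0.38 and −0.22 ± 0.25. Over the 12 tested genes of this role 6 values were above 0 and 6 below.

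The 4E-BP repressors are the direct mTORC1 substrates among these genes. Eif4ebp1 had 177.1, 222.6, 152.8 and 147.6 normalized counts in *Rragc* +/+ and 361.7, 251.5, 134.8 and 266.8 in *Rragc* S74N/+. All but replicate 3 of the *Rragc* S74N/+ livers lay above the *Rragc* +/+ range, and that one lay below it. The log2 difference was 0.47 ± 0.29 (SE), with an interval from −0.15 to 1.09 and an exact two-sided permutation p of 0.229.

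Eif4ebp2, which was several times as abundant as Eif4ebp1, had 681.4, 857.6, 823.3 and 385.9 in *Rragc* +/+ and 1647.1, 805.2, 521.5 and 1232.6 in *Rragc* S74N/+. Again replicate 3 of *Rragc* S74N/+, the 2.5-month-old liver, was the lowest of its group. For both 4E-BP genes the 2.5-month-old *Rragc* +/+ liver was also the lowest of its own. The log2 difference of Eif4ebp2 was 0.55 ± 0.35 (SE), with an exact two-sided permutation p of 0.286. Without the 2 livers of 2.5 months, Eif4ebp1 and Eif4ebp2 both had an unadjusted p under 0.05 and were higher in *Rragc* S74N/+, a setting in which 10.7% of all tested genes reached that level.

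**Figure D2:**
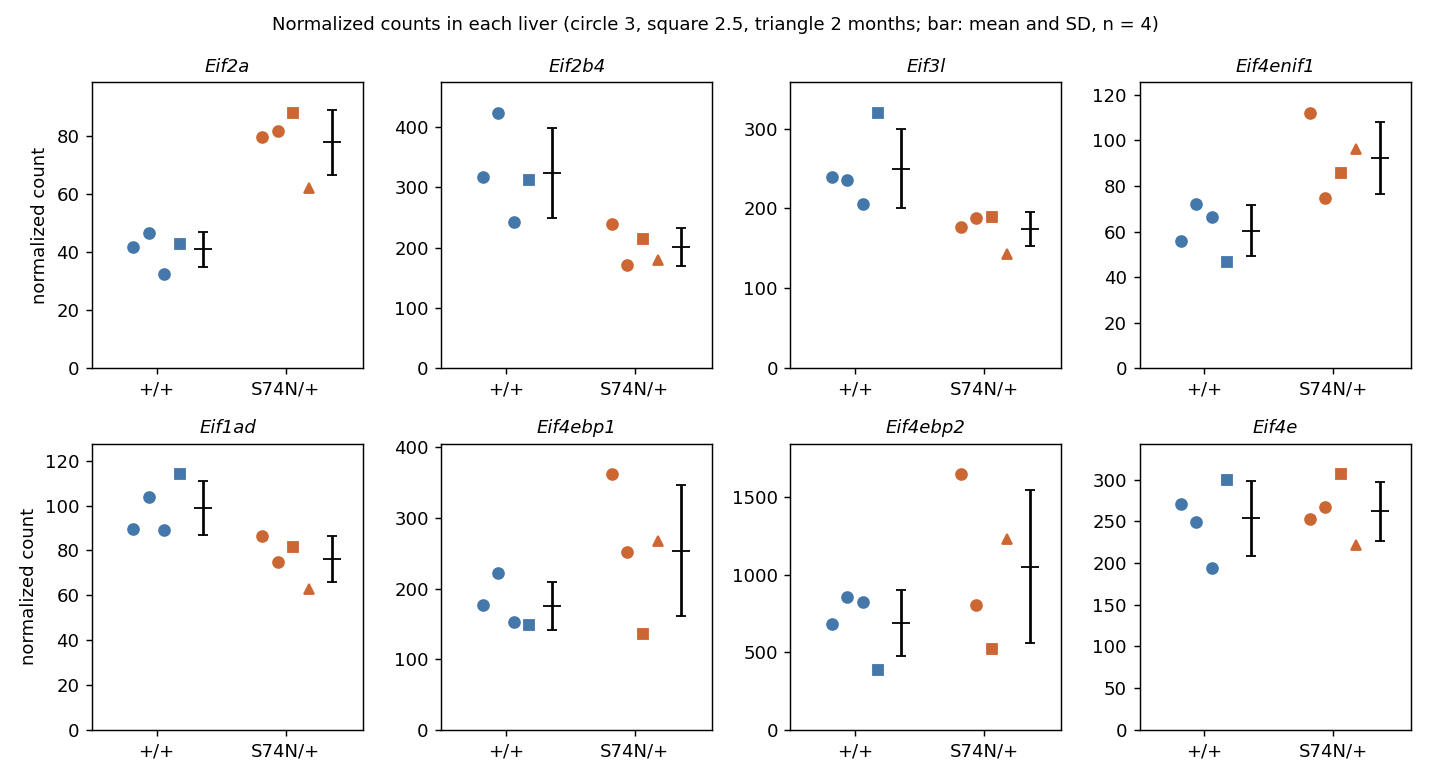
Normalized counts of 8 mRNAs (vertical axes from 0) in the individual *Rragc* +/+ livers (blue) and *Rragc* S74N/+ livers (orange), with circles for 3, squares for 2.5 and triangles for 2 months of age and bars for mean and SD (n = 4). The groups are separate for *Eif2a*, *Eif2b4*, *Eif3l*, *Eif4enif1* and *Eif1ad*, and overlap for *Eif4ebp1*, *Eif4ebp2* and *Eif4e*.

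Of the 6 elongation factors, 3 had values above 0 and 3 below, and 0 of the 6 reached an unadjusted p of 0.05. Eef1a1 had a log2 difference of 0.08 ± 0.20 (SE), with an interval from −0.36 to 0.52. Eef2 had −0.18 ± 0.27, and 1 of its *Rragc* +/+ livers (replicate 3, 2775 normalized counts) lay far below the other 3 (5582 to 5981). Eif5a, which helps ribosomes through difficult peptide bonds, ran from 398.0 to 1280 in *Rragc* +/+ and from 398.9 to 1942 in *Rragc* S74N/+, with 0.47 ± 0.45. The kinase Eef2k, which inhibits eEF2 and is itself held down by mTORC1 signalling, was counted on 7 to 41 reads per liver and had −0.46 ± 0.56.

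The start-site scanning factors had 5 of 6 values below 0, from −0.28 to 0.36, and 0 with an unadjusted p under 0.05. Eif1ad, a small gene named for its eIF1A-like domain, had 89.5, 103.8, 89.1 and 114.0 normalized counts in *Rragc* +/+ and 86.3, 74.7, 81.4 and 62.8 in *Rragc* S74N/+. Its groups did not overlap, by a margin of under 3 counts, and the log2 difference was −0.38 ± 0.23 (SE, exact two-sided permutation p = 0.0286, limma p = 0.127 unadjusted). Eif6, which keeps free large subunits from joining too early, had −0.25 ± 0.25.

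Across the 61 tested genes, 26 differences (42.6%) were above 0 and 35 below, against 51.3% above 0 among all tested genes, and the median was −0.06 against 0.01. The typical size of a difference was close to that of any gene: the median absolute log2 difference was 0.258 in the family and 0.257 over all tested genes. The 95% interval held 0 for 57 of the 61 and stayed between −1 and 1 for 38. For 14 it reached past 1 only, for 7 past −1 only and for 2 past both, so that a doubling or halving could not be set aside for these 23 at this depth and number of livers.

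**Figure D3:**
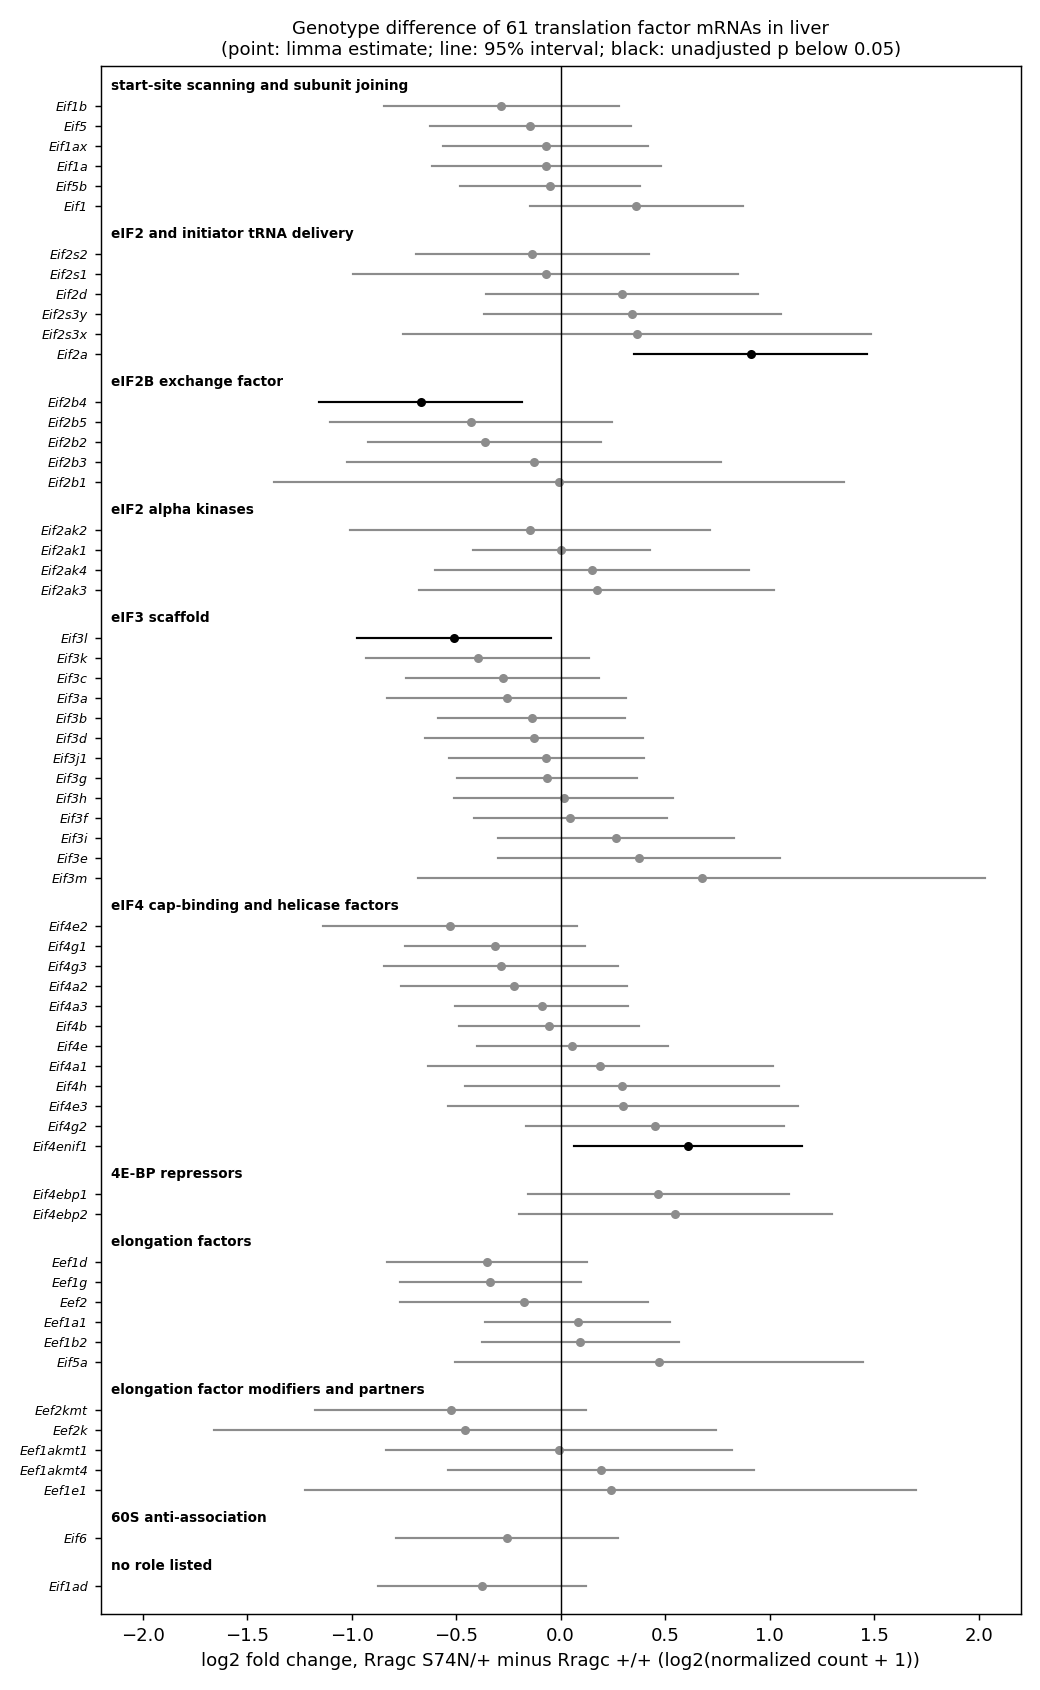
Log2 difference between *Rragc* S74N/+ and *Rragc* +/+ livers (horizontal axis, on log2 of normalized count plus 1) of 61 translation factor mRNAs grouped by role, with points for limma estimates, lines for 95% intervals and black for an unadjusted p under 0.05. Of the intervals 57 cross 0, and the 4 in black are *Eif2a* and *Eif4enif1* above 0 and *Eif2b4* and *Eif3l* below.

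Other genes that act with these factors were counted in the same fit. Of 70 listed genes of termination, poly(A) binding, mTORC1 and MAPK arms, eIF2 phosphatases, factor modification, selenocysteine and mitochondrial translation, and readouts of the integrated stress response, 60 were tested. None of the 60 passed the adjusted threshold (limma), 26 were above 0 and 34 below, and 1 had an unadjusted p under 0.05. This was Mtif3, a mitochondrial initiation factor, with −0.57 ± 0.23 (SE, limma adjusted p = 0.846). The stress readouts were Atf4 itself and other genes of the response to eIF2 alpha phosphorylation. Of these, 3 of 7 tested genes were above 0, with a median of −0.05 and a range from −0.58 to 1.07. The sums overlapped, at 3138 to 7040 normalized counts in *Rragc* +/+ and 3205 to 5097 in *Rragc* S74N/+. Most of each sum came from Atf4 and Atf5 (means 1973 and 3367 in *Rragc* +/+), so the sums say little of the other readouts. Of the 9 factors whose mRNAs begin with a terminal oligopyrimidine tract, through which mTORC1 controls their translation, 5 were above 0 and 4 below, with a median of 0.01.

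A second pattern ran between livers within each genotype and followed the 2.5-month-old mice, in genes of many kinds. It was noticed in the values and is described with a fit holding genotype and age as factors. In both genotypes the 2.5-month-old liver was the lowest of its group for 16 of the 61 genes (26.2%, against 16.0% of all tested genes) and the highest for 18 (29.5%, against 15.1%). The lowest set held both 4E-BPs and the highest 3 of 5 eIF2B subunits, while the eIF3 subunits were split, with 4 of 13 in the lowest set and 6 in the highest. With 1 mouse per genotype at this age, age cannot be told apart from whatever else these 2 animals shared.

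In that fit 4 of the 61 genes differed between 2.5 and 3 months at an adjusted p under 0.05 (limma), where 3.76% of all tested genes did, and each was lower at 2.5 months. At an unadjusted p under 0.05 there were 20 (32.8%), 13 lower and 7 higher, against 19.6% of all tested genes. Eif3m had the lowest log2 difference of the family, −1.69 ± 0.47 (SE), without passing the adjusted threshold (limma adjusted p = 0.0551). Eif5a was lowest by adjusted p, with a log2 difference of −1.40 ± 0.26 (SE, adjusted p = 0.00617). Its 2.5-month-old livers had 398.0 and 398.9 normalized counts, while the 3-month-old livers had 709.4 to 1588. The youngest liver, that of the 2-month-old *Rragc* S74N/+ mouse, did not share the low value and had the highest Eif5a of the 8 (1942).

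The other 3 were all genes of the cap-binding step. The 4E-BP Eif4ebp2 fell by 1.08 ± 0.25 on the log2 scale (SE, limma adjusted p = 0.0244). Eif4a1, an eIF4A helicase, had 94.4 and 114.8 normalized counts at 2.5 months and at least 170.6 at 3 months. Its log2 difference was −1.16 ± 0.27 (limma adjusted p = 0.0259). Eif4h, a helicase partner singled out after its values were seen, had 112.1 and 111.4 at 2.5 months and at least 185.3 at 3 months, with −1.03 ± 0.27 (limma adjusted p = 0.0448). In the 2-month-old liver the normalized counts were 1232.6 for Eif4ebp2, 315.7 for Eif4a1 and 286.3 for Eif4h, each above both 2.5-month-old livers.

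Their relatives did not all follow. The paralogous helicase Eif4a2 had 1805 and 1556 at 2.5 months, each within or above the 3-month range of 1050 to 1715, with a log2 difference of 0.30 ± 0.23 (SE). Eif2s2 was the highest of its group in both 2.5-month-old livers (4483 and 3843, against 2221 to 3124 at 3 months), with 0.66 ± 0.21 (SE, limma adjusted p = 0.0884). Eif2a and Eif2b4, in contrast, had age differences of 0.11 ± 0.32 and 0.02 ± 0.26.

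Genes outside the family also differed between 2.5 and 3 months, where 420 of all 11174 tested genes (3.76%) passed the adjusted threshold (limma). The genes named next are single calls from the lists and are not read as an excess over that share. Among the companion and marker lists, the cholangiocyte marker Sox9 (−1.63 ± 0.29, SE, limma adjusted p = 0.00508), the globin Hbb-bs (−1.29 ± 0.23, 0.00508), the Kupffer cell marker C1qc (−1.25 ± 0.33, 0.0413), the ribosomal protein Rps6 (−0.82 ± 0.21, 0.0364) and Tpt1 (−0.92 ± 0.21, 0.0215) were lower at 2.5 months by the same threshold. Within the same lists, the Kupffer cell marker C1qa (0.54 ± 0.28, SE) and the globin Hba-a2 (0.28 ± 0.24) were above 0. The Kupffer cell and erythroid lists were thus mixed in direction. The part of these genes in the values of the translation factors was not tested.

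These age calls rest on both 2.5-month-old livers and on the mean-variance trend, without which none of the 4 passed (limma adjusted p from 0.134 to 0.190, with 12 of the 61 genes at an unadjusted p under 0.05). Leaving out *Rragc* +/+ replicate 4 or *Rragc* S74N/+ replicate 3 left 0 of the genes past the adjusted threshold (lowest adjusted p of the 4 genes 0.0855 and 0.218, limma), while all 4 log2 differences stayed below 0, between −0.86 and −1.62. Without *Rragc* +/+ replicate 2 or *Rragc* S74N/+ replicate 1, Eif5a alone remained. The same livers touch the genotype comparison. Leaving out *Rragc* S74N/+ replicate 3 raised the number of translation factors with an unadjusted p under 0.05 from 4 to 18, in a setting where 15.1% of all tested genes reached that level, and 0 passed the adjusted threshold (limma, lowest adjusted p = 0.256).

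**Figure D4:**
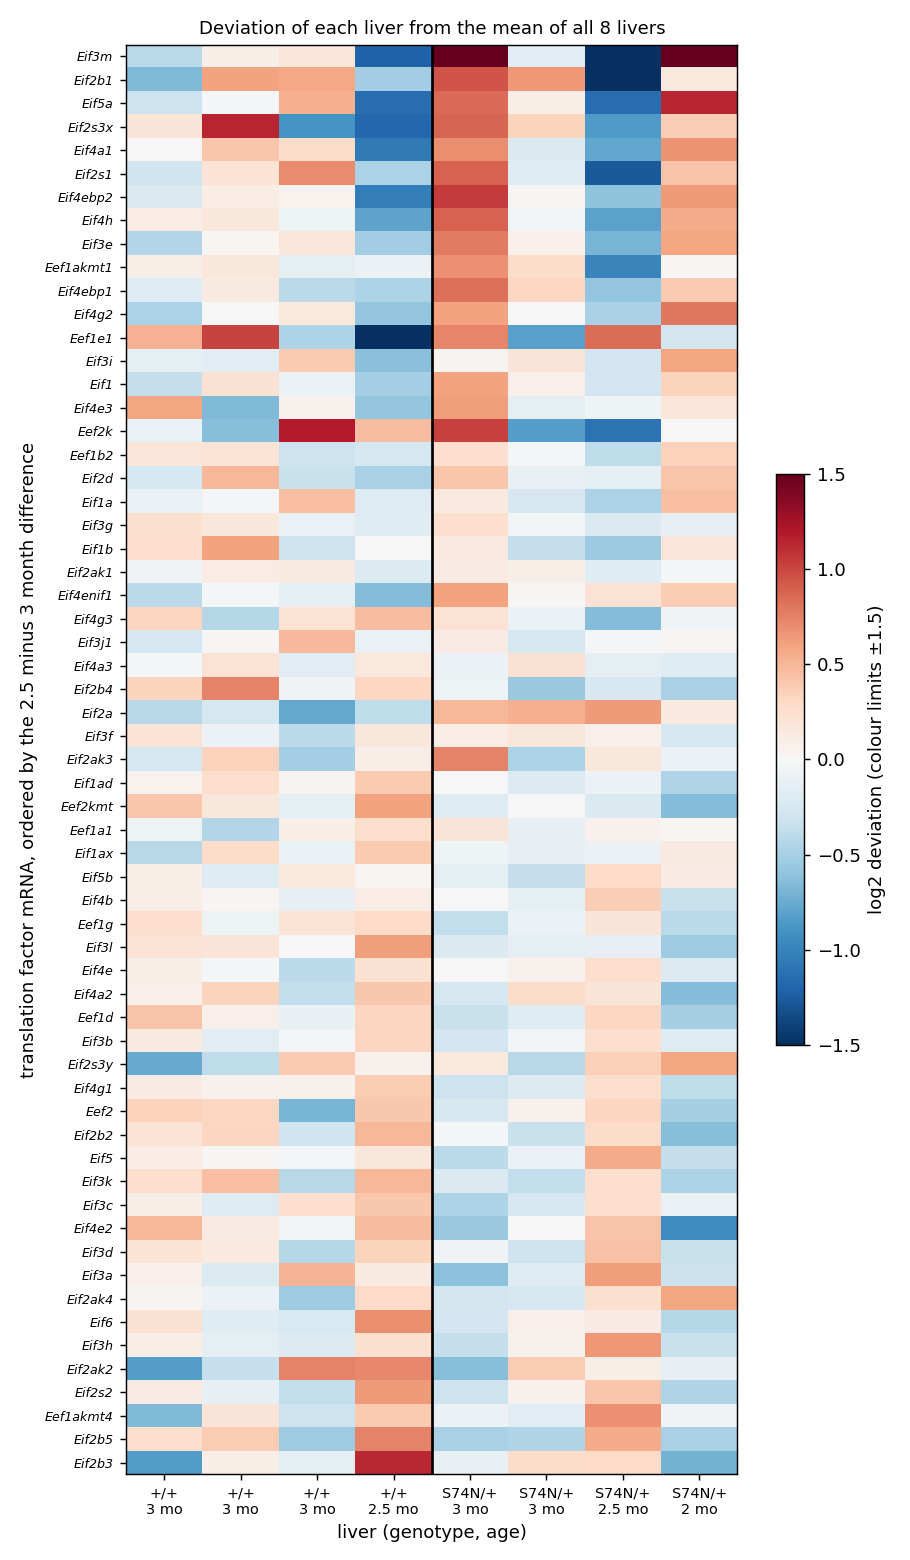
Deviation of each liver (columns, by genotype and age) from the mean of 8 livers for 61 translation factor mRNAs (rows), on the log2 scale with red above and blue below the mean. Rows are ordered by the difference between 2.5 and 3 months, so that the 2.5-month columns run from blue at the top (*Eif3m*, *Eif5a*, *Eif4a1*, *Eif4ebp2*) to red at the bottom (*Eif2b5*, *Eif2s2*) in both genotypes.

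A sequence that several of these promoters share is the E-box CACGTG, which reads the same on both strands and is the core site of basic helix-loop-helix factors such as MYC, TFEB and the clock proteins. RefSeq windows on GRCm38.p6 from 250 bases before to 50 after an annotated start were found for 50 of the 62 genes. Of the 50 genes, 12 (24.0%) held CACGTG in at least 1 window, against 11.9% of the 8454 tested genes with a window and 8.09% of all 27025 genes with one. This is a description of letters in a window and says nothing of binding. The stretches below, with CACGTG in capitals, are those of Eef2, Eif4e and of the 3 genes called between 2.5 and 3 months that hold it, and each lies before an annotated start.
Eef2, chr10:81176576-81176605, plus strand: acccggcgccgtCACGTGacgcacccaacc
Eif4e, chr3:138527192-138527221, plus strand: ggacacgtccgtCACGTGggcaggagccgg
Eif4a1, chr11:69672595-69672624, minus strand: cgatcgcctccgCACGTGtaaaggtgctgg
Eif4h, chr5:134639488-134639517, minus strand: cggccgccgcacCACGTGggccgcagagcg
Eif5a, chr11:69921443-69921472, minus strand: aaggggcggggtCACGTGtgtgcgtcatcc

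Of the 5 genes whose genotypes did not overlap 0 held CACGTG, and of the 4 called between 2.5 and 3 months 3 did, Eif4ebp2 being the one without. Over the 12 E-box genes, however, 5 had a log2 difference below 0 between 2.5 and 3 months. The genotype differences of the 12 E-box genes ran from −0.46 to 0.47 on the log2 scale, 6 above 0 and 6 below, with a median of −0.06, and those of the 37 tested genes without it had a median of −0.07. Eif4e and Eef2, shown above, had age differences of 0.29 ± 0.23 and 0.41 ± 0.26 (SE).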

How the data were processed

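Livers of *Rragc* +/+ and *Rragc* S74N/+ mice were profiled with sense-stranded QuantSeq 3′ libraries. Per the labels and the study's methods, TopHat2 (2.0.10) placed reads on GRCm38 and HTSeq (0.6.1, stranded) summed them over GENCODE genes, and the authors deposited these counts divided by DESeq size factors (a per-gene signal). All values (100% within 0.01) were whole multiples of 1 read, so reads were recovered (size factors 0.707 to 1.23).

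Groups came from the labels. Genes with a mean of at least 10 (11174 of 14506) were tested with limma (3.58.1, R 4.3.3, mean-variance trend) on log2(normalized count + 1), *Rragc* S74N/+ minus *Rragc* +/+, with Benjamini-Hochberg adjustment over all tested genes. Adding 1 before the logarithm understates fold changes of low genes. Since deposited values are normalized, edgeR (4.0.16) and DESeq2 (1.42.0) on the recovered reads were alternatives, with other pseudocounts, filters, scalings, ages and each liver left out. Single genes also had the exact permutation test over 70 labellings. The fit was tested on simulated data.

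Named genes were those with an unadjusted p under 0.05, with separate genotypes, at either end of their role by mean, among the 3 most variable, or from a list of central factors, and any other is said to be chosen after its values were seen, as are genes named for the age pattern or as examples of a role. The family and the lists were chosen with earlier results of these data known. Sequences and positions came from RefSeq (GRCm38.p6) and GENCODE M21, matched by symbol, with near copies found by BLAST. No column outside the series was used.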

Additional observations from a re-analysis of the deposited data

Results flagged for a closer look

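Among 33 translation factors, 66 genotype groups of 4 livers were searched for a sample far from the other 3 (Dixon's criterion), and 3 groups had one, where chance gives about 1 in 20, or 3.3. Eef2 had 2775 normalized counts (1962 reads) in *Rragc* +/+ replicate 3 and 5582 to 5981 in the other 3 livers. Eif4g1 had 3304 (3536 reads) in *Rragc* +/+ replicate 4, the 2.5-month-old liver, against 2642 to 2743 in the others. The methyltransferase gene Eef1akmt4 had 63.5 (57 reads) in *Rragc* S74N/+ replicate 3, also 2.5 months old, against 34.7 to 37.5.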

How the results depend on the processing

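Across 12 other settings and 8 fits with a liver left out, 0 translation factors and 0 companion genes passed the adjusted threshold between genotypes. Eif2a and Eif2b4 had an unadjusted p under 0.05 in 12 of 12 and 8 of 8, Eif4enif1 in 10 and 4, and Eif3l in 9 and 3. The number at that level was 3 to 4 except 8 without the 2.5-month-old livers (a setting chosen after seeing the data), and 2 to 18 with a liver left out. Over all tested genes the adjusted count of 1 became 0 without the trend, in 3-month-old mice alone and without the 2.5-month-old livers, 3 with age as a factor, 10 with DESeq2, and 0 to 2 with a liver left out. For 2.5 against 3 months, the count of 4 became 0 without the trend, 3 with edgeR, 5 with DESeq2 and with upper-quartile scaling, and 0 to 5 with a liver left out. The causes were not tested.

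Among the 32 named translation factors whose log2 difference between genotypes was followed singly, the sign reversed for 12, none of which had an unadjusted p under 0.05 in any of these settings. Eif2b1 became 0.0457 with a pseudocount of 5, 0.0011 with upper-quartile scaling, 0.0697 with age as a factor, 0.62 in 3-month-old mice alone, 0.21 with edgeR and 0.21 with DESeq2, and 0.41 without the 2.5-month-old livers. Eif2ak4 became −0.0627 with age as a factor and −0.0729 in 3-month-old mice alone. Eef1e1 became −0.40 in 3-month-old mice alone and −0.48 without the 2.5-month-old livers, and Eif2ak2 0.0177 and 0.0174 in these settings. Eif1a became 0.000498 and Eif2ak1 −0.0023 without the 2.5-month-old livers. With a liver left out, the ranges were −0.0518 to 0.18 for Eef1a1, −0.0030 to 0.36 for Eef1akmt4, −0.24 to 0.62 for Eef1e1, −0.23 to 0.0781 for Eif1a, −0.0651 to 0.0662 for Eif2ak1, −0.45 to 0.0747 for Eif2ak2, −0.0464 to 0.36 for Eif2ak3, −0.0216 to 0.27 for Eif2ak4, −0.33 to 0.58 for Eif2b1, −0.30 to 0.0547 for Eif2s2, −0.13 to 0.48 for Eif4a1 and −0.0676 to 0.14 for Eif4e.

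No paired analysis was possible because livers were numbered in record order, and no number marks a shared animal, litter or day. With 4 livers a genotype and a median SE of 0.26 on the log2 scale, small differences were not detectable.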
